A study of Mus musculus with 16 samples.

Results

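Nuclear receptors other than the COUP-TFs, the retinoic acid receptors and the thyroid hormone receptors were followed in the newborn mouse inner ear. The list held 35 genes, and a gene was taken when its symbol was the only one given for a probe set by the platform annotation. Of these genes, 28 had at least 1 probe set on the chip, 18 with a single probe set and 10 with several, which gave 44 of the 12422 probe sets tested. Esrrg, Nr1h2, Nr2e1, Nr2e3, Nr3c2, Nr4a3 and Rorb matched none and were dropped. No filter on low values was applied, so all 44 probe sets were tested.

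Whole inner ears were taken at P0, on the day of birth, from wild-type mice and from COUP-TFI-/- mice, which lack the nuclear receptor COUP-TFI (gene Nr2f1), both of strain 129SvEv. RNA was pooled from several tissue samples and hybridized to 8 Affymetrix MG-U74Av2 chips in 2 sets, A and B, run at separate times. A set held 1 pool of each genotype, put on 2 chips, so each genotype had 2 pools and 4 chips. In the replicate labels A1, A2, B1 and B2 the letter was taken to name the set, and the digit to name the duplicate chip, which the labels do not spell out, and every set, block and interaction value rests on that reading. Duplicate chips show the spread of the array and not that between pools, the deletion is in the whole animal, and a pool of whole ears mixes sensory epithelium, ganglion, stria, bone and vessels.

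Nuclear receptors are transcription factors that share a zinc finger domain for DNA and a pocket for a ligand. Steroid receptors bind hormones and act mostly as homodimers, the lipid and drug sensors pair with a retinoid X receptor, and orphan receptors have no accepted hormone. COUP-TFI belongs to the orphans and binds repeats of the same core hexamer as many of the receptors described here, so it can share sites with them. In the ear, Esrrb is known for its role in the marginal cells of the stria vascularis, and mutations of it cause hearing loss.

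Because that core hexamer is shared, the promoters of the receptor genes themselves were searched for it. The windows were those of RefSeq on GRCm38.p6, from 250 bases before to 50 bases after each start, and 34 windows of 25 receptor genes were found. Hnf4g, Nr3c1 and Nr5a1 had no window. The hexamer AGGTCA was counted on either strand (TGACCT on the other). It stood in 8 windows of 7 receptor genes. Among all 32851 windows, 16.3% held it. The direct repeat of the hexamer with 1 base between, the arrangement that COUP-TFs bind most tightly, was in 0 receptor windows and in 0.0396% of all. The longer letters CAAGGTCA, a form bound by NR5A and ERR receptors as monomers, were in 0 receptor windows and 1.56% of all. The 9 matches are shown because they are the only places in these windows where the shared hexamer was found. Capitals mark the hexamer, and each line reads 5′ to 3′ on the strand of the gene.
Nr0b1 promoter: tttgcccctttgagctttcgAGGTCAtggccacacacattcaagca
Nr1d2 promoter: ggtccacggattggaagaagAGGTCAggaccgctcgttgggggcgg
Nr1h4 promoter: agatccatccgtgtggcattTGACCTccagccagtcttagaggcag
Nr5a2 promoter: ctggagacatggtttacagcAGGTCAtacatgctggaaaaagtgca
Nr6a1 promoter, nearer match: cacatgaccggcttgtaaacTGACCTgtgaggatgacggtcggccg
Nr6a1 promoter, farther match: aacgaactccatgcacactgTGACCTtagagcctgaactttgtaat
Pparg promoter, first start: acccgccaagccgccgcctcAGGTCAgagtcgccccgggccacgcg
Pparg promoter, second start: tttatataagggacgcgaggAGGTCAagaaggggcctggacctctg
Rxrg promoter: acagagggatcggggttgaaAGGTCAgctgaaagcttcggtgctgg

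On GRCm38.p6 these stretches lie at chrX:86191629-86191674 (plus strand) for Nr0b1, chr14:18239158-18239203 (minus) for Nr1d2, chr10:89506847-89506892 (minus) for Nr1h4 and chr1:136960487-136960532 (minus) for Nr5a2. Those of Nr6a1 lie at chr2:38784535-38784580 and chr2:38784581-38784626 (minus). Those of Pparg lie at chr6:115361096-115361141 and chr6:115362320-115362365 (plus), and that of Rxrg at chr1:167618157-167618202 (plus). A match of letters is not a site that was shown to be bound. The genotype differences of the 7 genes with a match are given with the other results. With GCRMA their 9 probe sets ran from -0.26 to 0.04 log2 units around a median of -0.05. The 28 probe sets of the 18 genes without a match ran from -0.13 to 0.18 around 0.04. The lowest, Nr0b1 162413_r_at, was 0.09 within set A and -0.61 within set B. Medians of these groups with dChip were not computed. The spans overlap, and members are not replicates, so no test was made.

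The genotype of the chips was checked on Nr2f1 itself. Its probe set read 7.74 to 8.83 (GCRMA, log2) on the 4 wild-type chips and 4.68 to 5.27 on the 4 COUP-TFI-/- chips, with no overlap. Inner ear genes were clearly present: the wild-type mean was 10.07 for Gjb2, a gap junction protein of the cochlea, 9.66 for Pou3f4, a factor of the periotic mesenchyme, 8.87 for Tectb, a protein of the tectorial membrane, and 8.36 for Coch, a matrix protein of the ear. Chip medians were 7.20 to 7.23 with GCRMA and 291 to 305 intensity units with dChip. The median SD between duplicate chips was 0.089 log2 units. Genotype differences are the log2 mean of COUP-TFI-/- less that of wild-type, and set differences are A minus B. Tests are limma's on the pool means with the set as a block and Benjamini-Hochberg adjustment over all probe sets. The standard error (SE) of limma rests mainly on a variance prior shared by all probe sets (14.3 degrees of freedom with GCRMA and 4.55 with dChip, against 1 from the pools), so the differences within sets A and B show better how far the pools of a gene disagreed.

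Most receptors gave low signals. Each probe set was read against 50 probe sets of 38 genes that belong to other organs, such as testis, pancreas, gut and retina, taken as a low-signal reference on the same chip. The 90th percentile of that reference was 7.32 to 7.82 and its median 5.31 to 5.48 on the wild-type chips. Only 3 receptor probe sets exceeded the 90th percentile on all 4 wild-type chips, while 35.3% of all probe sets did. Another 30 lay between, and 11 stayed under the reference median on all 4 chips, against 16.4% of all probe sets. For Esr2, Hnf4g, Nr3c1, Nr6a1, Pgr and Pparg every probe set was under that median. With dChip, 10 receptor probe sets were above the 90th percentile, among them the same 3, and 14 were under the median. On a single wild-type chip 49.4% to 59.3% of all probe sets lay below that dChip percentile. The share of all probe sets above it on all 4 chips was not counted. Probes differ in affinity, so a low reading is not an absent transcript and levels of different probe sets cannot be ranked.

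**Figure D1:**
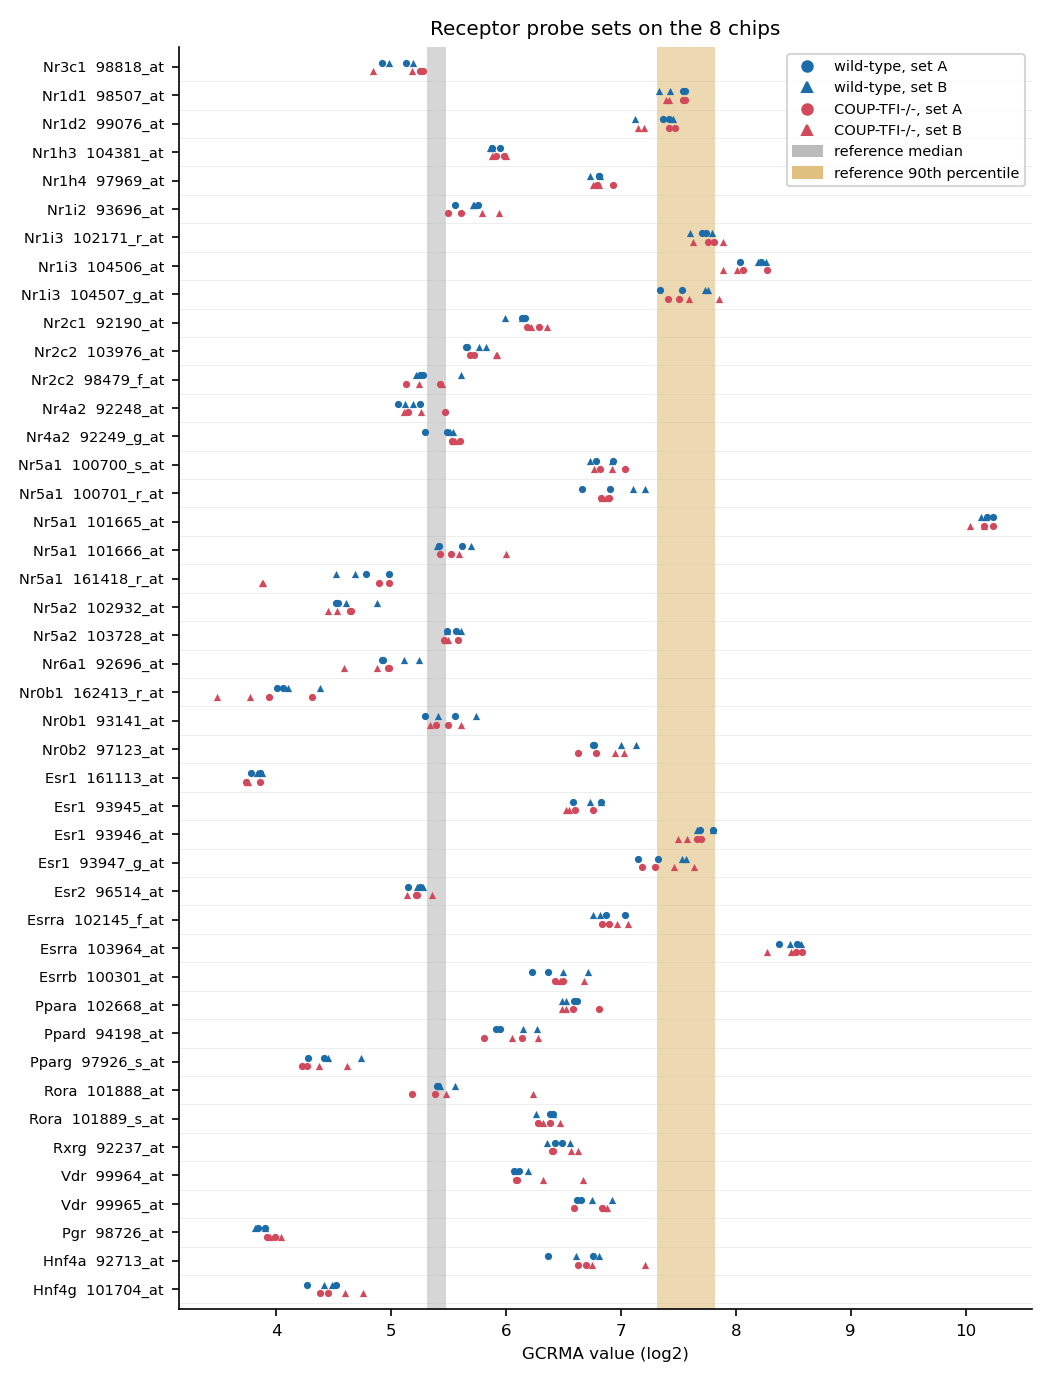
GCRMA values (log2, horizontal axis) of the 44 receptor probe sets on each chip, wild-type in blue and COUP-TFI-/- in red, circles for set A and triangles for set B. The grey band spans the median of the low-signal reference over the wild-type chips (5.31 to 5.48) and the tan band its 90th percentile (7.32 to 7.82); the points of the 2 genotypes overlap in every row but those of Nr2c1 and Pgr.

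The 3 that exceeded it belonged to Nr5a1, Esrra and Nr1i3. Nr5a1 encodes steroidogenic factor 1, a regulator of steroid synthesis in adrenal gland and gonad. Nr5a1 101665_at read 10.24, 10.19, 10.13 and 10.18 on the wild-type chips A1, A2, B1 and B2, and 10.16, 10.24, 10.16 and 10.04 on the COUP-TFI-/- chips in that order (GCRMA). All chips lay close together, and in wild-type 94.4% to 95.2% of the probe sets of a chip were lower. Its genotype difference was -0.04 (95% interval -0.24 to 0.16). The 4 other probe sets of Nr5a1 were far lower, with wild-type means of 6.84 (100700_s_at), 6.97 (100701_r_at), 5.53 (101666_at) and 4.74 (161418_r_at). The wild-type mean of 101665_at thus lay further from those of the other 4 than any genotype or set difference of Nr5a1 reached, while 100700_s_at and 100701_r_at lay close to each other. Which of the 5 reports the transcript was not tested. Of their suffixes, _s_at, _f_at and _g_at mark probe sets that can match related sequences, and _r_at those that missed some design rules.

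Esrra is the estrogen-related receptor alpha, which drives genes of mitochondrial energy metabolism. Esrra 103964_at read 8.53, 8.38, 8.47 and 8.57 in wild-type and 8.52, 8.58, 8.48 and 8.27 in COUP-TFI-/- (GCRMA, same order). The genotypes overlapped, and the difference was -0.03 (interval -0.24 to 0.19). Nr1i3 is the xenobiotic receptor CAR, best known in liver. Nr1i3 104506_at read 8.22, 8.04, 8.26 and 8.19 in wild-type and 8.06, 8.27, 8.01 and 7.89 in COUP-TFI-/-. In set B both COUP-TFI-/- chips were under both wild-type chips, and in set A they were not, with differences of -0.28 and 0.04. Nr1i3 102171_r_at read 7.71, 7.74, 7.79 and 7.60 in wild-type and 7.81, 7.76, 7.89 and 7.63 in COUP-TFI-/-, and again the genotypes overlapped.

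No receptor differed between the genotypes past the adjusted threshold. With GCRMA, 0 of 44 probe sets had an adjusted p under 0.05, against 0.105% of all probe sets, and the lowest adjusted p of a receptor was 0.977. With dChip, 0 passed as well, against 0.00805% of all probe sets. At an unadjusted p under 0.05 the count was 1 with GCRMA (4.58% of all probe sets) and 1 with dChip (2.13%), and they were different genes. In bulk tissue, fewer cells of a type and less RNA per cell cannot be told apart, and this holds for every difference given here. The receptor differences had a median of 0.01 (0.00 over all probe sets), and their absolute size had a median of 0.07 (0.06 over all). They ran from -0.33 to 0.18, with 25 above and 19 under 0. Of the 44 probe sets 42 differed by less than 0.2 log2 units, and for 42 the whole 95% interval lay within 0.5 log2 units of 0. With dChip 39 did. The same counts were not made over all probe sets, so they do not set the receptors apart. The bounds are for the probe set readings, and how far low signal narrows them was not tested.

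**Figure D2:**
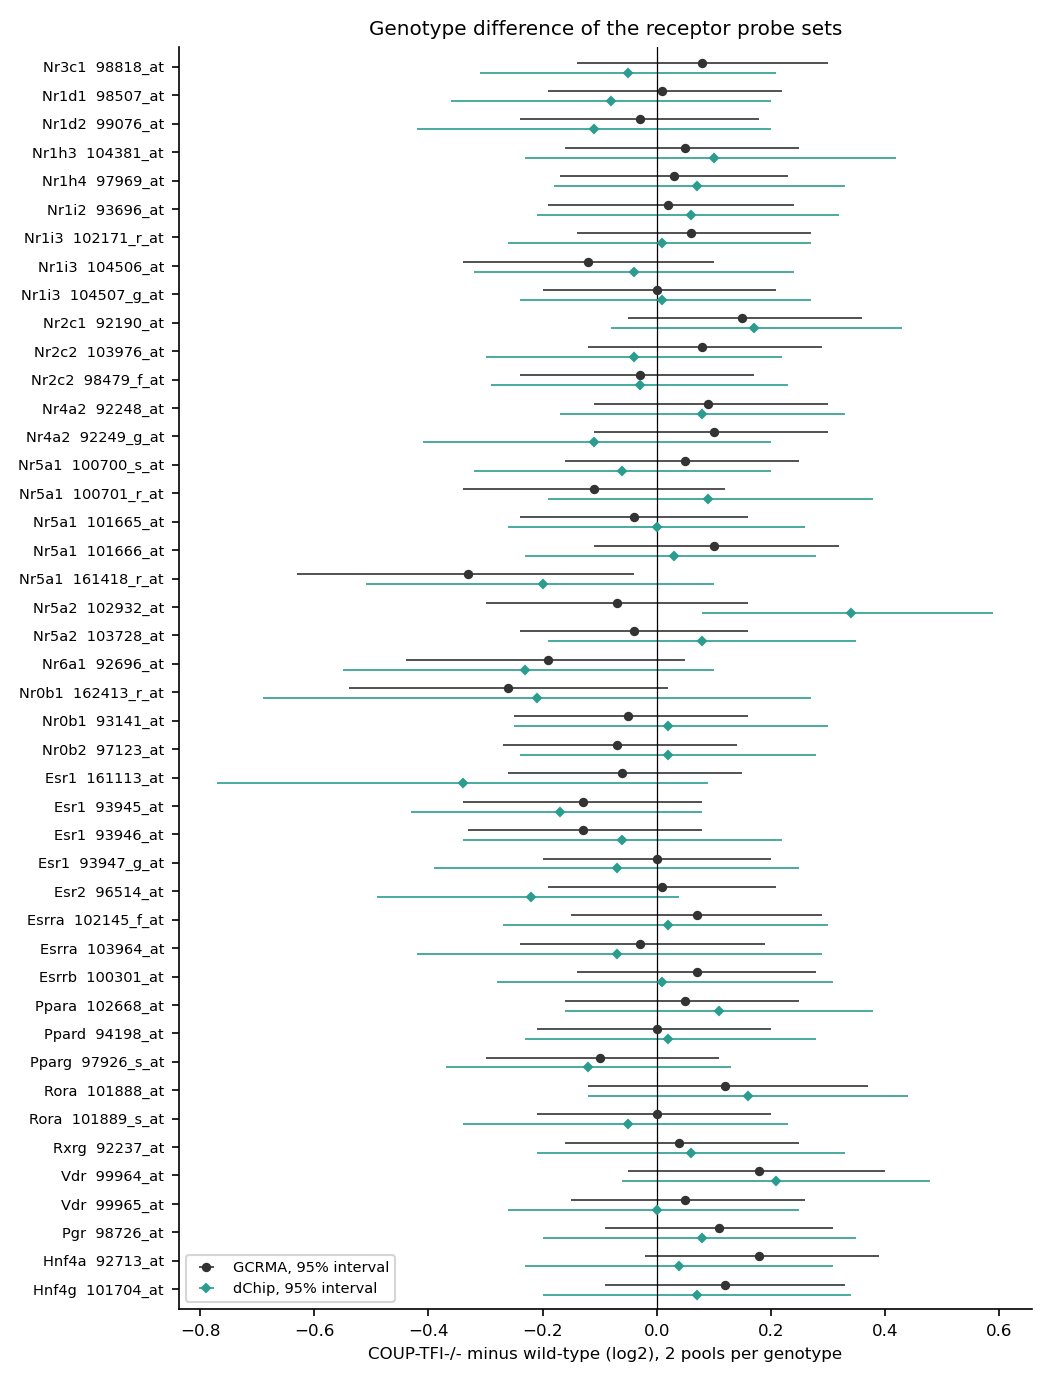
COUP-TFI-/- minus wild-type difference (log2, horizontal axis) of each receptor probe set with its 95% interval from limma, GCRMA as black circles and dChip as green diamonds, 2 pools per genotype. GCRMA differences stay between -0.33 and 0.18, and 15 of the 44 probe sets have opposite signs in the 2 normalizations.

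A genotype difference of the same sign in both sets was found for 20 of the 44 receptor probe sets with GCRMA (45.5%), close to the 45.6% of all probe sets that had one. The same sign in both sets and in both normalizations was found for 6 receptor probe sets (13.6%), and 21.8% of all probe sets had it. They were those of Nr1h4, Nr2c1 and Pparg, 92248_at of Nr4a2, and 93945_at and 161113_at of Esr1. The 8 chips split by genotype without overlap for 2 receptor probe sets with GCRMA, against 2.26% of all (Nr2c1 and Pgr), and for 0 with dChip, against 1.89%.

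The receptor with the GCRMA p under 0.05 was again Nr5a1, through a probe set under the reference median. Nr5a1 161418_r_at read 4.98, 4.78, 4.52 and 4.69 in wild-type and 4.90, 4.98, 3.88 and 3.89 in COUP-TFI-/- (GCRMA, chips A1, A2, B1 and B2). The 2 COUP-TFI-/- chips of set B stood under the other 6 chips, and in set A the genotypes overlapped. The difference was -0.33 ± 0.14 (SE; limma adjusted p = 0.977), for which set A gave 0.06 and set B -0.73. These 2 values differed by 0.78 (adjusted p = 0.0197 from limma on the 8 chips), and this was the 1 receptor probe set past the interaction test, against 0.958% of all probe sets. That test has no replicate pools within a set and rests on duplicate chips, and 0 receptors passed it without wild-type chip A2 or B2 or without COUP-TFI-/- chip A1 or A2. With dChip its interaction did not pass, and 0 receptors did, against 0.459% of all. The dChip intensities were 186, 168, 124 and 117 in wild-type and 174, 168, 87.5 and 100 in COUP-TFI-/-, a difference of -0.20 on the log2 scale. The other 4 probe sets of Nr5a1 gave genotype differences of -0.11 to 0.10 with GCRMA.

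Nr5a2, or LRH-1, the close relative of Nr5a1 that controls bile acid and cholesterol genes, was the receptor with a dChip p under 0.05. Nr5a2 102932_at read 110, 116, 82.1 and 68 dChip units in wild-type and 140, 143, 93.6 and 96.4 in COUP-TFI-/-. Within each set both COUP-TFI-/- chips were above both wild-type chips, while across sets the genotypes overlapped. The difference was 0.34 ± 0.10 on the log2 scale (SE; limma adjusted p = 1). GCRMA gave 4.52, 4.54, 4.88 and 4.61 in wild-type and 4.65, 4.64, 4.45 and 4.53 in COUP-TFI-/-, with the opposite sign (-0.07). Its second probe set, 103728_at, gave -0.04 with GCRMA and 0.08 with dChip.

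**Figure D3:**
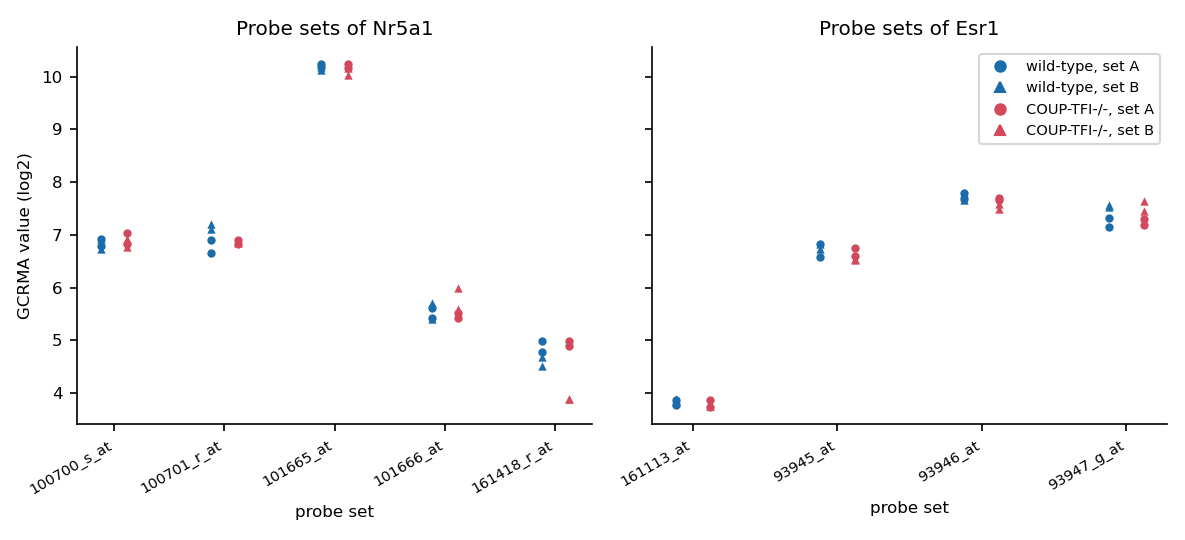
GCRMA values (log2, vertical axis) of the 5 probe sets of Nr5a1 and the 4 of Esr1 on each chip, wild-type in blue, COUP-TFI-/- in red, circles for set A and triangles for set B. Probe sets of 1 gene lie far apart, from 4.74 to 10.19 in the wild-type mean of Nr5a1, and the COUP-TFI-/- chips of set B fall away from the rest in Nr5a1 161418_r_at.

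Among the steroid receptors, Nr3c1 encodes the glucocorticoid receptor. Nr3c1 98818_at read 4.92, 5.13, 5.19 and 4.98 in wild-type and 5.25, 5.28, 4.84 and 5.18 in COUP-TFI-/- (GCRMA). The genotypes overlapped, the difference was 0.08 (interval -0.14 to 0.30), and its sign was positive in set A (0.24) and negative in set B (-0.07). Esr1 and Esr2 encode the estrogen receptors alpha and beta. Of the 4 Esr1 probe sets, 93945_at read 6.58, 6.83, 6.73 and 6.83 in wild-type and 6.60, 6.76, 6.55 and 6.52 in COUP-TFI-/-, and 161113_at read 3.86, 3.78, 3.88 and 3.83 against 3.74, 3.86, 3.76 and 3.75. Both were lower in COUP-TFI-/- in both sets and normalizations, with GCRMA differences of -0.13 and -0.06, and the chips of the genotypes overlapped. With dChip, Esr1 161113_at read 55.7, 57.3, 69.2 and 75.3 in wild-type and 53.7, 58.1, 45.3 and 45.7 in COUP-TFI-/-. That difference was -0.34 on the log2 scale (interval -0.77 to 0.09), the lowest of the receptors with dChip, and it came from set B (-0.67) rather than set A (-0.02). The interaction had an adjusted p of 0.0536 (limma, dChip). Esr1 93946_at read 7.69, 7.80, 7.66 and 7.80 in wild-type and 7.66, 7.70, 7.58 and 7.50 in COUP-TFI-/-, a difference of -0.13 (interval -0.33 to 0.08). The fourth, 93947_g_at, gave 0.00.

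Esr2 96514_at differed by 0.01 with GCRMA and by -0.22 with dChip (interval -0.49 to 0.04). Pgr encodes the progesterone receptor. Pgr 98726_at read 3.84, 3.90, 3.90 and 3.82 in wild-type and 3.92, 3.99, 4.04 and 3.95 in COUP-TFI-/- (GCRMA). The 4 COUP-TFI-/- chips stood above the 4 wild-type chips by a narrow margin, and the difference of 0.11 had an interval of -0.09 to 0.31. With dChip the intensities were 16.2 to 26.8 over all chips and the genotypes overlapped. Vdr, the vitamin D receptor, was 0.18 ± 0.11 higher in COUP-TFI-/- by 99964_at and 0.05 ± 0.10 by 99965_at (SE, GCRMA), and neither passed. Vdr 99964_at read 6.07, 6.11, 6.08 and 6.19 in wild-type and 6.10, 6.09, 6.67 and 6.32 in COUP-TFI-/- (GCRMA). This GCRMA difference came from set B (0.36) and was -0.00 in set A. With dChip the difference was 0.21, with 0.12 in set A and 0.30 in set B.

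None of the lipid sensors passed the genotype test. Ppara, which switches on fatty acid oxidation, differed by 0.05 (interval -0.16 to 0.25), and Ppard, its widely expressed relative, by -0.00 (interval -0.21 to 0.20). Pparg, the regulator of fat cell formation, read 4.42, 4.28, 4.45 and 4.74 in wild-type and 4.27, 4.23, 4.37 and 4.62 in COUP-TFI-/- (97926_s_at, GCRMA). Both sets gave -0.10, and dChip gave -0.12 in both, but the interval with GCRMA was -0.30 to 0.11. Nr1h3, the oxysterol sensor LXR alpha, differed by 0.05, and Nr1h4, the bile acid sensor FXR, by 0.03 with the same sign in both sets and normalizations. Rxrg, a dimer partner of these sensors, differed by 0.04, and its sign turned between the sets (-0.05 in A and 0.14 in B).

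The drug sensors Nr1i2, or PXR, and Nr1i3 gave GCRMA differences of 0.02 for Nr1i2 93696_at and of -0.12 to 0.06 for the 3 probe sets of Nr1i3. Hnf4a, a master regulator of liver and gut genes, gave 0.18 (interval -0.02 to 0.39), and 0.04 with dChip. Its relative Hnf4g gave 0.12 (interval -0.09 to 0.33). Of the estrogen-related receptors, Esrra 102145_f_at gave 0.07, and Esrrb, the strial receptor, gave 0.07 (interval -0.14 to 0.28). Esrrb 100301_at read 6.23, 6.37, 6.71 and 6.50 in wild-type and 6.43, 6.50, 6.47 and 6.68 in COUP-TFI-/-, with overlapping genotypes.

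Nr1d1 and Nr1d2, the REV-ERB repressors of the circadian clock, and Rora, the activator that competes with them for the same elements, passed in none of their probe sets. The GCRMA differences were 0.01 for Nr1d1 98507_at, -0.03 for Nr1d2 99076_at, and 0.12 and -0.00 for the Rora probe sets 101888_at and 101889_s_at. The intervals of these 4 lay between -0.24 and 0.37.

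The remaining orphans include Nr2c1 and Nr2c2, of the subfamily to which COUP-TFI belongs. Nr2c1, or TR2, a repressor of globin genes in red cell precursors, read 6.17, 6.14, 6.14 and 5.99 in wild-type and 6.18, 6.29, 6.22 and 6.36 in COUP-TFI-/- (92190_at, GCRMA). All 4 COUP-TFI-/- chips were above all 4 wild-type chips, though 6.18 and 6.17 nearly touched. The difference was 0.15 ± 0.10 (SE; limma adjusted p = 1). Set A gave 0.08, set B 0.23, and dChip 0.17 over both. Its partner Nr2c2, or TR4, gave 0.08 and -0.03 by its 2 probe sets. The study's 2-way analysis of variance, with thresholds of 0.01 for the genotype (under) and the interaction (over), takes duplicate chips as replicates. With GCRMA it selected 1 receptor probe set, Nr2c2 103976_at at a difference of 0.08, and 2.06% of all probe sets. With dChip it selected 2, Vdr 99964_at and Nr5a2 102932_at, and 2% of all. No receptor probe set was selected in both normalizations.

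Nr4a2, or NURR1, an immediate early gene also needed by dopamine neurons, read 5.25, 5.06, 5.12 and 5.19 in wild-type and 5.15, 5.47, 5.26 and 5.11 in COUP-TFI-/- (92248_at, GCRMA). The genotypes overlapped, and the difference was 0.09, against 0.10 by 92249_g_at. Nr6a1, or GCNF, a repressor of pluripotency genes, differed by -0.19 ± 0.11 (SE). Set A gave 0.05 and set B -0.44. Nr6a1 92696_at read 4.92, 4.93, 5.11 and 5.24 in wild-type and 4.97, 4.98, 4.88 and 4.59 in COUP-TFI-/-, so that only in set B did both COUP-TFI-/- chips lie under both wild-type chips. Nr0b1 and Nr0b2, or DAX1 and SHP, lack a DNA-binding domain of their own and restrain other receptors, DAX1 acting on the product of Nr5a1. Nr0b1 162413_r_at read 4.06, 4.01, 4.10 and 4.38 in wild-type and 3.94, 4.31, 3.77 and 3.49 in COUP-TFI-/-, a difference of -0.26 ± 0.13 (SE; limma adjusted p = 1), for which set A gave 0.09 and set B -0.61. Its other probe set gave -0.05, and Nr0b2 gave -0.07.

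Differences between the hybridization sets were called for no larger a share of the receptors than of all probe sets. With GCRMA, 5 of 44 receptor probe sets (11.4%) passed the set test, against 25.8% of all probe sets: 1 was higher in set A (13.6% of all) and 4 were lower in set A (12.2% of all). With dChip 5 passed too (11.4%), against 11.7% of all: 5 were higher in set A (6.76% of all) and 0 were lower (4.9% of all). The absolute set difference of the receptors had a median of 0.10 with GCRMA (0.16 over all) and 0.20 with dChip (0.19 over all). The low-signal reference, whose levels most receptors shared, also moved: of its 50 probe sets 1 was higher and 9 were lower in set A, with a median of -0.13 and a summed level of 11.80 to 11.90 in set A, against 11.92 to 12.07 in set B (log2 of the summed GCRMA values). Its part in the receptor set differences was not tested. Each set held other pools and other hybridizations, and these cannot be told apart.

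The calls differed between the normalizations, and only Nr5a1 161418_r_at passed in both with the same sign (0.66, adjusted p = 0.00254 with GCRMA, and 0.71, adjusted p = 0.0267 with dChip). With dChip values under 16 raised to 16, the difference of 0.71 no longer passed (adjusted p = 0.0782). Rora 101888_at read 5.40, 5.41, 5.18 and 5.38 on the 4 chips of set A, wild-type first, and 5.43, 5.56, 6.24 and 5.48 on those of set B. All set A chips were lower, and the difference was -0.33 (adjusted p = 0.0424). Without COUP-TFI-/- chip B1, which read 6.24, it was -0.14 (adjusted p = 0.369), and the call was also lost without wild-type chip A2, B1 or B2 or COUP-TFI-/- chip A1 (0.062 to 0.137). Esr1 93947_g_at read 7.32, 7.15, 7.30 and 7.18 on the chips of set A, against 7.53, 7.57, 7.64 and 7.46 for set B, a difference of -0.31 (adjusted p = 0.0255) without overlap. It no longer passed without wild-type chip A2 or B1 or COUP-TFI-/- chip B1 (adjusted p = 0.0538 to 0.0721). Nr0b2 97123_at read 6.77, 6.76, 6.63 and 6.78 against 7.13, 7.0, 7.03 and 6.95, a difference of -0.29 (adjusted p = 0.0341), again without overlap. It no longer passed without wild-type chip A2 or B1 or COUP-TFI-/- chip A1 or B1 (adjusted p = 0.0553 to 0.115).

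Nr1i3 104507_g_at went opposite ways in the 2 normalizations. With GCRMA it read 7.53, 7.34, 7.41 and 7.51 in set A, against 7.73, 7.76, 7.85 and 7.59 in set B, a difference of -0.28 (adjusted p = 0.0399), which no longer passed without wild-type chip A2 or B1 or COUP-TFI-/- chip A1 or B1 (0.0751 to 0.136). With dChip it read 741, 754, 749 and 746 in set A, against 600, 635, 630 and 629 in set B, a difference of 0.26 (adjusted p = 0.143). The chips of the sets did not overlap in either, but the direction was turned. Esr1 93946_at was the largest set difference with dChip: the intensities were 369, 379, 411 and 364 in set A, against 176, 199, 159 and 175 in set B, a difference of 1.10 (adjusted p = 0.0087). With GCRMA the same probe set gave 0.08 (adjusted p = 0.595). In all, 10 receptor probe sets had set differences of opposite sign in the 2 normalizations.

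The clock repressors had the next largest GCRMA differences in the direction of set A, and they did not pass. Nr1d1 98507_at read 7.54, 7.56, 7.56 and 7.54 in set A, against 7.33, 7.43, 7.42 and 7.39 in set B, a difference of 0.16 (adjusted p = 0.236), and dChip gave -0.10. Nr1d2 99076_at read 7.37, 7.42, 7.42 and 7.47 in set A, against 7.45, 7.12, 7.15 and 7.20 in set B, a difference of 0.19 (adjusted p = 0.164), with wild-type chip B1 among the chips of set A. Nr0b1 162413_r_at gave 0.15 (adjusted p = 0.444), and its sets overlapped.

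**Figure D4:**
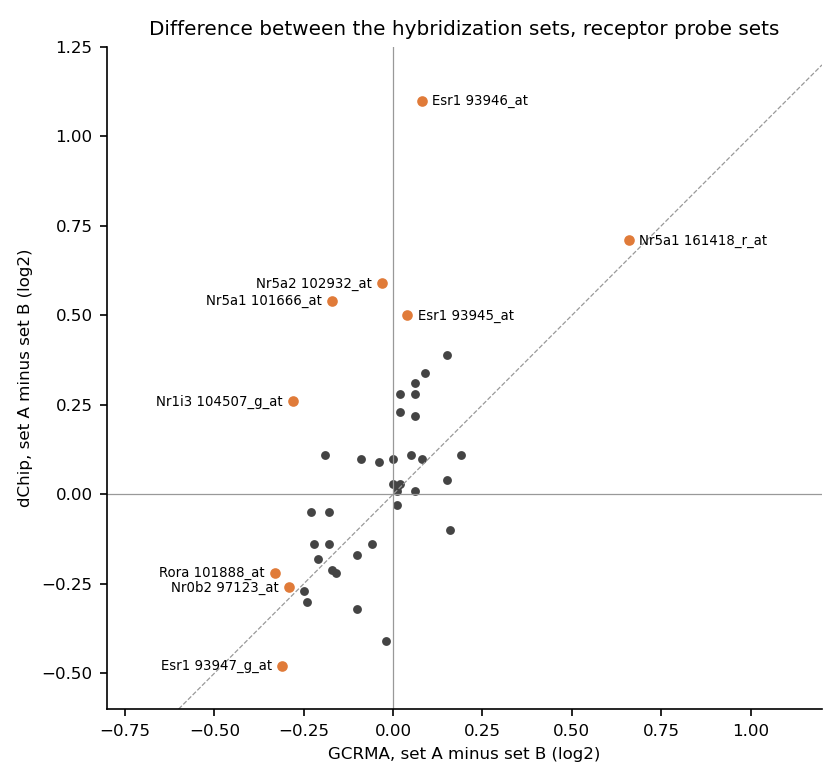
Set A minus set B difference (log2) of each receptor probe set with GCRMA (horizontal axis) and dChip (vertical axis), with the line of equality dashed. Orange points passed the set test in at least 1 normalization; Nr5a1 161418_r_at (0.66 and 0.71) passed in both, and Esr1 93946_at (0.08 and 1.10) lies far from the line.

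Markers of other tissues moved between the sets too, where 13.6% of all probe sets were higher and 12.2% lower in set A. Of 19 probe sets of neurons 14 were higher in set A, with a summed level of 12.84 to 12.96 in set A, against 12.47 to 12.68 in set B. Of 10 probe sets of cartilage and bone 6 were lower in set A, and the summed level was 13.43 to 13.61 against 14.11 to 14.26. Of 17 probe sets of inner ear markers 9 were higher in set A, with 13.33 to 13.47 against 12.92 to 13.16. The part of tissue makeup in the receptor set differences was not tested.

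Genes around the receptors were read by the same genotype test, from lists of coregulators, targets and ligand enzymes. Genes that respond to glucocorticoids were the list with calls: of 35 probe sets of 24 genes, 7 rose in COUP-TFI-/- and 0 fell, against the 0.105% of all probe sets called in either direction, and the median difference was 0.29 with GCRMA and 0.26 with dChip. Zbtb16, a zinc finger factor, rose by 1.03, Fkbp5, a chaperone of steroid receptors, by 0.82, Glul, or glutamine synthetase, by 0.74, and Sesn1, a stress-induced growth inhibitor, by 0.68. Sult1a1, Ddit4 and Mt2 made up the 7. Several genes of this list were picked out in the study from these same chips, so the list is no independent evidence of its direction. The count of 7 moved with the settings. It was 0 with dChip, where the adjusted p of Zbtb16 was 0.785 and those of the other 6 were 1. It was 1 with quantile normalization and without wild-type chip A2 or B1, 0 without the set block or without COUP-TFI-/- chip A1, and 12 without COUP-TFI-/- chip B1. With GCRMA all 7 had positive differences in both sets, 0.42 to 0.95 in A, and 0.62 to 1.12 in B. With dChip the differences of the 7 were positive in both sets too, and 0.27 to 0.96 over both. Only 0.00805% of all probe sets passed the dChip test. The difference of Nr3c1, the receptor for these hormones, was 0.08 by its single probe set, as given above.

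Some markers of striated muscle rose as well. Of their 31 probe sets 2 rose with GCRMA (Myh8 and Myh3, the perinatal and embryonic myosins) and 0 fell, against 0.105% of all probe sets called. Neither myosin passed with dChip, where the differences were 0.95 and 0.82. The median difference of the 31 was 0.25 with GCRMA. Their summed level was 13.98 to 14.69 on wild-type chips, against 14.66 to 14.83 on COUP-TFI-/- chips. The chips of set A read 14.66 to 14.69 in both genotypes, so the lowest and the highest summed level were those of set B. The rise of both myosins was also larger there: Myh8 gave 1.41 against 0.56 within A, and Myh3 gave 1.11 against 0.49. Both passed the interaction test (adjusted p = 0.0272 and 0.0444, limma on the 8 GCRMA chips), against 0.958% of all probe sets. The study dropped genes with an interaction in its own test, which in theory it ascribes to contaminating tissue from the dissection. That reading was not tested here. Of 17 macrophage probe sets 0 passed, and their median difference was 0.03 with GCRMA and 0.04 with dChip. Their summed level, in which bright probe sets weigh most, was 11.95 to 12.13 on wild-type chips, against 12.20 to 12.28 on COUP-TFI-/- chips, without overlap. The part of muscle and macrophages in the rise of the glucocorticoid-responsive genes was not tested.

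**Figure D5:**
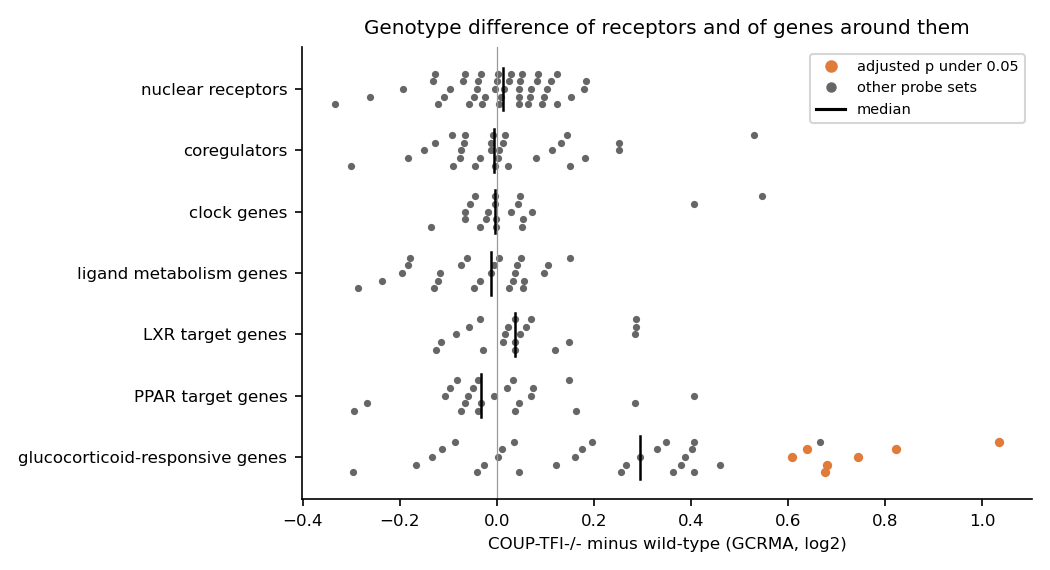
COUP-TFI-/- minus wild-type difference (GCRMA, log2, horizontal axis) of every probe set of the receptors and of 6 lists of genes around them, with the median of each list as a black bar and probe sets past an adjusted p of 0.05 in orange. The receptors centre on 0.01, and the 7 orange points all belong to glucocorticoid-responsive genes.

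The other lists held no call. Of 30 probe sets of 22 coregulator genes 0 passed, and the median was -0.01. The lowest p belonged to Nrip1, the corepressor RIP140, at 0.53 ± 0.13 (SE; adjusted p = 0.323), 0.18 within A and 0.88 within B, and to Prmt1, an arginine methyltransferase, at -0.30 ± 0.10 (adjusted p = 0.705). Of 20 probe sets of 14 clock genes 0 passed. Nfil3, a repressor bZIP factor, gave 0.55 ± 0.11 (adjusted p = 0.0923), and Per1, which glucocorticoids also induce and which stands on both lists, gave 0.41 ± 0.10 (adjusted p = 0.287). The same 2 genes had positive differences in both sets and with dChip.

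Of 20 probe sets of 14 LXR target genes 0 passed, with Lpl, lipoprotein lipase and a PPAR target as well, at 0.28 ± 0.10 (SE; adjusted p = 0.713) and Abca1, the cholesterol exporter, at 0.29 ± 0.10 (adjusted p = 0.713). Of 23 probe sets of 17 PPAR target genes 0 passed. Pdk4, which shuts down glucose oxidation and is also on the glucocorticoid list, gave 0.41 ± 0.11 (adjusted p = 0.427), and Adipoq, the fat cell hormone adiponectin, gave -0.29 ± 0.10 (adjusted p = 0.705). With dChip Pdk4 gave 0.33, and Adipoq gave -0.05, with -0.16 in set A and 0.06 in set B. Adipoq is also 1 of the fat markers. Of their 10 probe sets 2 fell with GCRMA and 0 rose, against 0.105% of all probe sets called. Both were of Ucp1, the uncoupling protein of brown fat (-1.26 and -0.59). Neither passed with dChip, where the differences were -0.95 and -1.43. The summed level of the fat markers was 11.07 to 11.20 on wild-type chips, against 10.88 to 11.03 on COUP-TFI-/- chips. The part of fat in the PPAR target values was not tested. Of 25 probe sets of 19 genes that make or break down receptor ligands 0 passed. The lowest p belonged to Cyp24a1, the vitamin D hydroxylase, at -0.29 ± 0.12 (adjusted p = 0.977). Next was Hsd3b1, a steroid dehydrogenase, by a probe set that can match related genes, at -0.24 ± 0.12 (adjusted p = 1). Both differences came from set B (-0.57 and -0.55), and set A gave -0.00 and 0.07. Hsd3b1 passed the interaction test with GCRMA (limma adjusted p = 0.0421), against 0.958% of all probe sets, but not with dChip (0.552). The wild-type means of these probe sets, 4.44 and 3.97, lay under the median of the low-signal reference (5.31 to 5.48).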

How the data were processed

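Each chip was deposited by the authors in 2 forms, as GCRMA log2 values and as linear dChip intensities. Software versions are not given in the sources used here. All 16 value columns were used, and 0 were left out. The 66 control probe sets were removed, leaving 12422 (GCRMA) and 12421 (dChip). The platform annotation gave 1 gene symbol to 10833, several to 396 and none to 1193, and all 28 receptor genes matched RefSeq. Before log2, dChip values under 1 (89 of them) were raised to 1. In R 4.3.3, limma 3.58.1 and statmod 1.5.0 were applied to the means of duplicate chips, 2 pools per genotype, with the set as a block. By the methods each set pairs 1 pool of each genotype, and set differences of the genotypes correlated across probe sets with r = 0.752 (GCRMA) and 0.688 (dChip). The interaction was fitted on the 8 chips. A Benjamini-Hochberg adjusted p under 0.05, 2-sided, was the threshold. Arrays give no counts, and precision is limited by how few pools and chips there were. The scripts were tested on simulated data. Lists covered coregulators, clock genes, glucocorticoid-responsive genes, LXR and PPAR targets, ligand metabolism, a low-signal reference, and markers of inner ear, hair cells, striated muscle, neurons, retina, fat, macrophages, cartilage and bone, and pituitary and brain. Chip values are given for receptor probe sets under an unadjusted genotype p of 0.05 in either normalization, the 5 largest GCRMA differences of the same sign in both sets and normalizations, the 4 largest set differences in each direction, interaction calls and the 5 highest wild-type GCRMA means, and for others chosen after their values were seen. The members and lists were chosen with earlier results of these data known. Alternatives were dChip, a dChip floor of 16, quantile normalization, no set block, chips as replicates with and without the pool as a random block, a filter on low values, a mean-variance trend, the study's 2-way analysis of variance and leaving out each chip.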

Additional observations from a re-analysis of the deposited data

Results flagged for a closer look

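Of 176 groups of 4 chips (44 receptor probe sets, 2 genotypes and 2 normalizations), 7 held a chip that stood apart from the other 3 by Dixon's criterion, which picks about 1 in 20 groups by chance. In wild-type, Nr1h4 97969_at read 6.73 on chip B1 (others 6.81 to 6.82), Nr2c2 98479_f_at read 5.61 on B2 (5.22 to 5.28) and Rora 101888_at read 5.56 on B2 (5.40 to 5.43) with GCRMA. With dChip, Nr2c2 103976_at read 58.4 on wild-type B2 (51.0 to 52.3) and Nr0b1 93141_at read 80.7 on wild-type B1 (101 to 105). In COUP-TFI-/-, Esr1 161113_at read 3.86 on A2 (3.74 to 3.76) and Vdr 99965_at read 6.59 on A1 (6.84 to 6.88) with GCRMA. None of these probe sets passed the genotype test.

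The genotype difference of Nr5a1 161418_r_at was 0.06 log2 units within set A but -0.73 within set B, values that lay 0.78 apart (adjusted p = 0.0197 from limma on the 8 GCRMA chips), where each set gave 1 pool of either genotype.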

How the results depend on the processing

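The cause of each change below was not tested unless it is named. No receptor probe set passed the genotype test with dChip, the dChip floor of 16, quantile normalization, chips as replicates, the random block, the filter, the trend, without the set as a replicate block, or without any single chip; the study's 2-way analysis of variance, unadjusted, selected 1 with GCRMA. The count at an unadjusted p under 0.05 was 1, and it was 0 with quantile normalization, 0 without the replicate block, 2 with chips as replicates, 2 with the random block, 0 with the filter and 3 by analysis of variance. Leaving out 1 chip gave 0 (COUP-TFI-/- A1) to 4 (COUP-TFI-/- B2). The filter left 5 of 44 receptor probe sets and removed Nr5a1 161418_r_at. The set test passed 5, and 0 with the dChip floor of 16, 9 with chips as replicates, 9 with the random block and 0 with the filter. Leaving out 1 chip gave 1 (wild-type A2 or B1) to 7 (wild-type A1 or COUP-TFI-/- B2), and 2 without COUP-TFI-/- A1 or B1. The interaction test passed 1, and 0 with dChip and 0 by analysis of variance. Leaving out 1 chip gave 0 (wild-type A2 or B2, COUP-TFI-/- A1 or A2) to 2 (COUP-TFI-/- B1, which added Nr6a1, or B2, which added Rora 101888_at). The count of glucocorticoid-responsive probe sets that rose was 7, and, in settings added after seeing the data, 0 with dChip under either floor, 1 with quantile normalization, 0 without the replicate block, 11 with chips as replicates, 11 with the random block and 0 (without COUP-TFI-/- A1) to 12 (without COUP-TFI-/- B1) on leaving out 1 chip. Above the reference stood 3 probe sets, 16 with its 75th percentile and 10 with dChip. Signs turned with dChip, under either floor, for the genotype difference of Nr5a2 102932_at (0.34) and for the set differences of Nr1i3 104507_g_at (0.26) and Nr1d1 98507_at (-0.10). Of the other values of named receptors, 103 genotype and 80 set differences kept their sign and side of the threshold, 26 set differences lost and 2 gained a call.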

Other observations

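Other marker lists held no genotype call. Among the macrophage markers, the 3 subunits of complement C1q gave 0.31 for C1qb, 0.29 for C1qc and 0.26 for C1qa (adjusted p = 0.713, 0.752 and 0.977). The median over the 17 macrophage probe sets was 0.03. Of 17 inner ear probe sets 0 passed, with Tectb at -0.48 (adjusted p = 0.106). Of 10 hair cell probe sets 0 passed, and their median was -0.01 with GCRMA and with dChip. The lowest p belonged to the calcium-binding proteins Calb1 at -0.29 and Calb2 at -0.25 (adjusted p = 0.705 and 0.909). The myosins of this list did not share that direction, with Myo7a at 0.12 and Myo6 at 0.15 and -0.13 by different probe sets. Markers of retina (11 probe sets), neurons (19), cartilage and bone (10) and pituitary and brain (15) had medians of -0.01, -0.08, 0.11 and -0.04, with 0 calls each. The summed level of the pituitary and brain markers was 11.99 to 12.51 over the chips of set A and 11.38 to 11.95 over those of set B. Both the lowest and the highest of these values came from wild-type chips. The COUP-TFI-/- chips lay close together between them, from 11.93 upward, so the gap between the sets was mainly one of the wild-type pools.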
